A study of Mus musculus with 9 samples.

Results

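Expression of the FOS and JUN family genes was measured in mouse retinal explants cultured with and without 2-deoxy-D-glucose (2-DG), a glucose analog that blocks glycolysis. The family comprises Fos, Fosb, Fosl1, Fosl2, Jun, Junb and Jund, which were taken by symbol, and the 7 genes are 7 of the 55487 genes in the count table. The retinas came from C57BL/6J wild-type animals aged 28 postnatal days, were taken at a fixed time after lights on, were freed of cornea, iris, sclera and retinal pigment epithelium and were kept for 48 h in Neurobasal-A medium with 5 mM glucose. The control group (5 libraries) received no 2-DG and the 2-DG group (4 libraries) received 20 mM 2-DG, after which all explants spent 1 h in Krebs' Ringer medium. The labels call the libraries biological replicates without giving the number of mice or retinas behind each one, so p-values measure the spread between these libraries. An explant has no blood supply and its optic nerve is cut, and both groups share this and the culture itself. The treatment text of the labels mentions 2-DG for the control samples as well, and the groups were therefore taken from the sample titles.

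FOS and JUN proteins are basic leucine zipper transcription factors. A FOS protein pairs with a JUN protein, and JUN proteins also pair with each other, to form activator protein 1 (AP-1). AP-1 binds sequences of the form TGANTCA and, with ATF partners, the cyclic AMP response element (CRE) TGACGTCA. Fos, Fosb, Jun and Junb are immediate early genes, whose mRNA rises within minutes of a stimulus and is short-lived, under kinases of the ERK, JNK and p38 pathways and factors such as SRF, the ternary complex factors and CREB. In the retina, the genes are known to respond to light, to axon injury and to culture stress, in neurons and in Müller glia.

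The promoters of the immediate early members are shown for the CRE and AP-1 sequences that they hold near the start site. RefSeq (GRCm38.p6) gave a promoter for 6 of the 7 genes, all but Fosl1. The 250 bases before the start site are printed 5′ to 3′ on the coding strand for the 4 immediate early genes. Capitals mark the CRE core TGACG in Fos, Fosb and Junb and the variant AP-1 sequence TGACATCA in Jun. The regions are chr12:85473640-85473889 on the plus strand for Fos, and chr7:19310046-19310295, chr4:95052223-95052472 and chr8:84978749-84978998 on the minus strand for Fosb, Jun and Junb.
Fos: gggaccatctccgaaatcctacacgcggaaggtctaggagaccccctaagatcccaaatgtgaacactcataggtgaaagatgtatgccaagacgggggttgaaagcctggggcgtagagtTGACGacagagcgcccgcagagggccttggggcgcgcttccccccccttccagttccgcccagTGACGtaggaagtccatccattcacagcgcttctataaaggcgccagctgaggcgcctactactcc
Fosb: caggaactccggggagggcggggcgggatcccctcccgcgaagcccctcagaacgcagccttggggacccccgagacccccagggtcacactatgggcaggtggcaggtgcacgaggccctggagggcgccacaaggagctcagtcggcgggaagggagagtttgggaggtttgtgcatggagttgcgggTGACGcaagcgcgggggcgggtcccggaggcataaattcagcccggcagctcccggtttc
Jun: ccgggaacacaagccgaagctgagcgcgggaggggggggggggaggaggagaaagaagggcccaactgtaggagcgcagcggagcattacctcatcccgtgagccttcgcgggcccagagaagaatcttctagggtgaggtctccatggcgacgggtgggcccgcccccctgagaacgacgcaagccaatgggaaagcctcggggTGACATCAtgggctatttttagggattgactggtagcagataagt
Junb: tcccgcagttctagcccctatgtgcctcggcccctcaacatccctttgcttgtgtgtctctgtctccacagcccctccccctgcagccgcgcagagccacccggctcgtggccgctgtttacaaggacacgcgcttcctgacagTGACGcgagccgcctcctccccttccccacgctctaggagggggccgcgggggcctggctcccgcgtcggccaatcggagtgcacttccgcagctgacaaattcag

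On either strand, TGACG was found in 3 of the 6 promoters and in 17.8% of all 32851 mouse promoters of the same length. In Fos it began 129 and 66 bases before the start site, in Fosb 60 bases and in Junb 106 bases before it. TGACATCA was found in Jun, 45 bases before the start site, and in 2.93% of all promoters. The full palindrome TGACGTCA, which contains TGACG, was found in 0 of the 6 windows and in 1.55% of all promoters. The pattern TGANTCA, with any base at N (6.75% of all promoters), and the CArG box that SRF binds (1.47%) were also found in 0 of them. Bases further than 250 before the start site were not searched, so these counts do not show that a gene lacks such a site. The GC box GGGCGG was found in 4 of the 6 promoters, those of Fos, Fosb, Fosl2 and Jun, and in 32.7% of all promoters. The RefSeq start sites of Fosl2 and Jund lie 671 and 1210 bases from the GENCODE M21 starts of these genes, so their windows describe another start than the counted gene models, and those of Fosb and Junb lie 6 and 30 bases from it.

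The libraries held between 11317734 and 51802249 estimated counts, and the family took 0.0787% to 0.531% of them. Each gene had at least 387 counts in every library, and counting error was small beside the spread between libraries. Rod markers had counts in every library (9 of 9 genes), with summed levels of 4830.4 to 42055.6 CPM (counts scaled to a common library size) in the control group and 7342.8 to 16062.1 CPM in the 2-DG group. Control replicate 2 held the 42055.6 CPM, against 4830.4 to 14720.5 CPM in the other control libraries, and its share of mitochondrial counts was 10.7% within a range of 3.4% to 13.6%. Because this library also had the lowest control level of all 7 family genes, each comparison of the family was made with it and without it. Leaving out the control that is lowest for every gene lowers each fold change and widens the separation by construction, so the values without it are a description and no further support.

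All 7 genes had lower mean levels in the 2-DG group, and none passed the adjusted threshold in edgeR's test. In edgeR's fit of all 9 libraries Fosb differed most, followed by Fosl1, Junb and Fos. The mean of Fosb was 501.7 ± 299.3 CPM (SD, n = 5) in controls and 142.8 ± 55.3 CPM (SD, n = 4) in 2-DG explants. With voom the log2 fold change of Fosl1 was the lower of these, -2.12 against -1.67 for Fosb. Without 2-DG replicate 4 it was -2.11 against -1.89. By edgeR's quasi-likelihood test with Benjamini-Hochberg adjustment over 21049 genes, 0 of the 7 genes and 0% of all genes had an adjusted p-value under 0.05. DESeq2 likewise called 0 of the 7 genes (284 of all genes), and voom with quality weights called 2 of the 7, Fosb and Fosl1 (1222 of all genes). At an unadjusted p-value under 0.05, 2 of the 7 genes, Fos and Fosb, were lower, against 4.83% of all genes (1526 genes had such a p-value in either direction). The count was 1, Fosb alone, without control replicate 3, 4 or 5 or without 2-DG replicate 2 or 3, and stayed 2 without 2-DG replicate 4, with Fosl1 in place of Fos. Fitted log2 fold changes below 0 were found for 7 of 7 genes and for 50.8% of all genes (46.9% without control replicate 2), and the median was -1.06 for the family and -0.01 for all genes. Without control replicate 2, the unadjusted count was 4 of 7 (Fos, Fosb, Fosl1 and Junb), against 6.07% of all genes. The adjusted count then stayed at 0 of 7, against 0.0775% of all genes. The 7 genes are not independent observations, since their levels moved together between libraries. In whole explants, fewer cells of a type and less RNA per cell cannot be told apart.

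**Figure D1:**
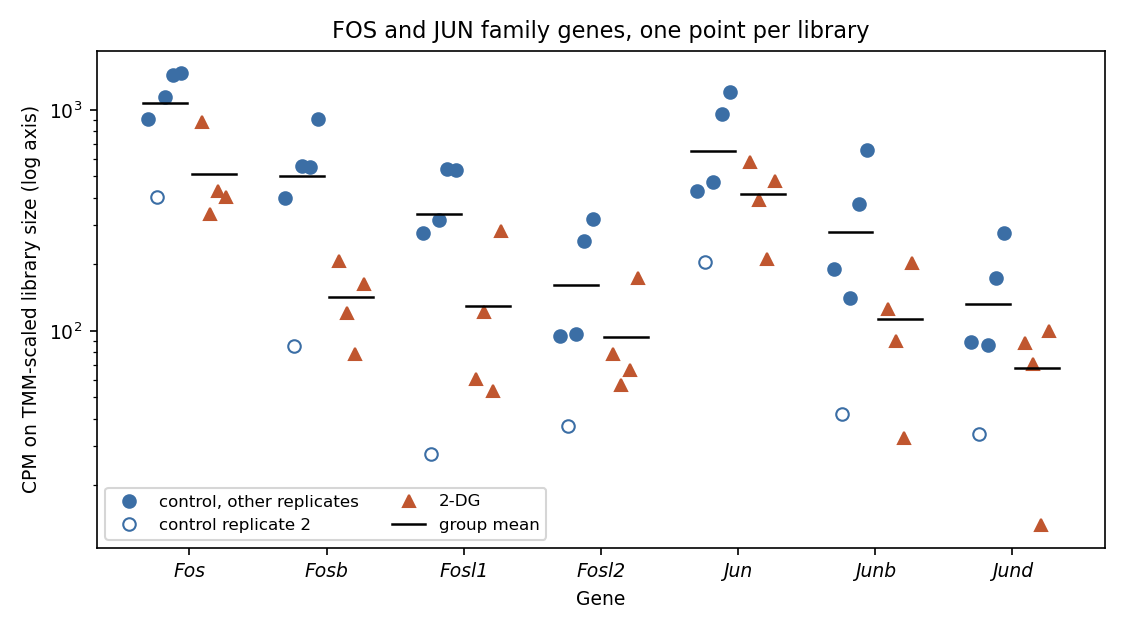
Level of each family gene in each library, in CPM on the TMM-scaled library size (log axis), with circles for control, triangles for 2-DG and bars for group means. Control replicate 2 (open circle) is the lowest control library for 7 of 7 genes, and without it the groups are separate for Fos and Fosb.

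Fos, the founding member of the family and an immediate early gene, lies on chromosome 12 (85473890 to 85477273, plus strand, GRCm38) and is protein-coding. Its level was 913.4, 403, 1142.8, 1438.4 and 1463.1 CPM in control replicates 1 to 5 and 884.1, 337.1, 430 and 401.7 CPM in 2-DG replicates 1 to 4. Control replicate 2 fell among the 2-DG libraries, and 2-DG replicate 1 came close to the next lowest control, so the groups overlapped. The log2 fold change was -1.06 (SE 0.43, edgeR adjusted p = 0.656, unadjusted p = 0.0325). Without control replicate 2 the groups were separate, and the log2 fold change was -1.27 (SE 0.35, edgeR adjusted p = 0.22, unadjusted p = 0.00537). Without 2-DG replicate 1 it was -1.45. The unadjusted p-value in edgeR's test was between 0.056 and 0.0932 without control replicate 3, 4 or 5 or 2-DG replicate 2, 3 or 4, each left out alone.

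Fosb encodes FOSB and, through an alternative splice, the shorter and long-lived ΔFOSB. It lies on chromosome 7 (19302696 to 19310051, minus strand). Its level was 397.4, 85.5, 559.9, 553.9 and 911.6 CPM in control replicates 1 to 5 and 207.6, 120.9, 79 and 163.5 CPM in the 2-DG replicates. All 2-DG libraries lay below 4 of the 5 controls, and control replicate 2 lay within the 2-DG range. The log2 fold change was -1.81 (SE 0.56, edgeR adjusted p = 0.546, unadjusted p = 0.00871), and 2.05% of all genes had a lower one. The mean of the other 4 controls was 605.7 ± 217.4 CPM (SD), 4.24-fold that of the 2-DG group, and without control replicate 2 the groups did not overlap. The log2 fold change was then -2.09 (SE 0.37, edgeR adjusted p = 0.0669, unadjusted p = 0.000288), the smallest p-value in the family and still above the adjusted threshold. Groups without overlap, lower in 2-DG, were found for 2 of 7 genes in this comparison and for 4.53% of all genes, and for 0 of 7 genes with all 9 libraries against 1.41% of all genes.

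Fosl1 encodes FRA1, a FOS protein without a strong activation domain whose gene is itself a known AP-1 target. It lies on chromosome 19 (5447547 to 5455946, plus strand). Its level was 278, 27.7, 318.8, 538.6 and 535.2 CPM in control replicates 1 to 5 and 60.7, 121.6, 53.6 and 282.7 CPM in the 2-DG replicates. Control replicate 2 was the lowest of all 9 libraries, at 6.63% of the mean of the other controls, and 2-DG replicate 4 stood at the level of control replicate 1. For Fosl1 the log2 fold change was -1.39 (SE 0.75, edgeR adjusted p = 0.739, unadjusted p = 0.0913) and, without control replicate 2, -1.69 (SE 0.54, edgeR adjusted p = 0.311, unadjusted p = 0.0121). Leaving out 2-DG replicate 4 instead gave -2.11, and leaving out both libraries gave -2.42 with an edgeR adjusted p-value of 0.0442. These are the lowest control and the highest 2-DG library for Fosl1, so leaving them out widens the difference by construction, and the value is a description. Fosl1 shares 2767 bases with Ccdc85b on the opposite strand. Ccdc85b had 5.4% to 100.1% as many counts as Fosl1, and the strand setting of the counting is not given in the sources used here, and without strand the reads of the shared part cannot be told apart.

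Fosl2 encodes FRA2 and lies on chromosome 5 (32135801 to 32157842, plus strand). Its level was 95.1, 37.2, 97.3, 253.9 and 321.9 CPM in control replicates 1 to 5 and 78.9, 56.7, 66.3 and 172.7 CPM in the 2-DG replicates. Control replicates 4 and 5 carried the higher control mean, and 2-DG replicate 4 exceeded the other 3 controls. For Fosl2 the log2 fold change was -0.78 (SE 0.59, edgeR adjusted p = 0.801, unadjusted p = 0.212) and, without control replicate 2, -1.04 (SE 0.5, edgeR adjusted p = 0.607, unadjusted p = 0.0692). Neither was larger than the spread between libraries by these tests, and without control replicate 5 the value was -0.38.

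Jun encodes c-JUN, the main partner of FOS and the substrate after which the JNK kinases are named. It lies on chromosome 4 (95049034 to 95052222, minus strand). Its level was 430.7, 204.5, 473.9, 961.5 and 1203.8 CPM in control replicates 1 to 5 and 581.7, 390.5, 212.4 and 474.9 CPM in the 2-DG replicates. The 2-DG libraries spread over the range of control replicates 1 to 3 and beyond it, and control replicates 4 and 5 stood above all others. Jun had the smallest difference in the family, with a log2 fold change of -0.66 (SE 0.5, edgeR adjusted p = 0.802, unadjusted p = 0.216) and of -0.89 (SE 0.42, edgeR adjusted p = 0.597, unadjusted p = 0.0651) without control replicate 2. Without control replicate 5 it was -0.33. The antisense gene Junos overlaps 689 bases of Jun and had at most 1.12% as many counts.

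Junb encodes a JUN protein that activates weakly and can oppose c-JUN, and it lies on chromosome 8 (84974484 to 84978718, minus strand). Its level was 191.2, 42, 140.4, 374 and 659 CPM in control replicates 1 to 5 and 126, 89.8, 32.9 and 202.8 CPM in the 2-DG replicates. Of the 2-DG libraries, replicate 4 lay above control replicates 1 and 3, and replicate 3 was the lowest of all 9. For Junb the log2 fold change was -1.32 (SE 0.72, edgeR adjusted p = 0.741, unadjusted p = 0.097) and, without control replicate 2, -1.6 (SE 0.62, edgeR adjusted p = 0.457, unadjusted p = 0.029). Without control replicate 5 it was -0.74. Prdx2 overlaps 351 bases of the Junb gene on the opposite strand and had 15.2% to 392% as many counts, but the overlap lies in the minor transcript Junb-202, which took at most 0.338% of Junb transcript counts.

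Jund encodes the JUN protein that is present in most resting cells and is induced least. It lies on chromosome 8 (70698949 to 70700616, plus strand), and its level was 89.2, 34.2, 86.1, 172.8 and 277.6 CPM in control replicates 1 to 5 and 87.8, 70.8, 13.2 and 100.1 CPM in the 2-DG replicates. Of the 2-DG libraries, 3 lay near control replicates 1 and 3, and replicate 3 was far below the rest. For Jund the log2 fold change was -0.96 (SE 0.64, edgeR adjusted p = 0.781, unadjusted p = 0.166) and, without control replicate 2, -1.21 (SE 0.6, edgeR adjusted p = 0.62, unadjusted p = 0.0749). Without control replicate 5 it was -0.5. The antisense gene Gm11175 overlaps Jund and had at most 0.587% as many counts.

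**Figure D2:**
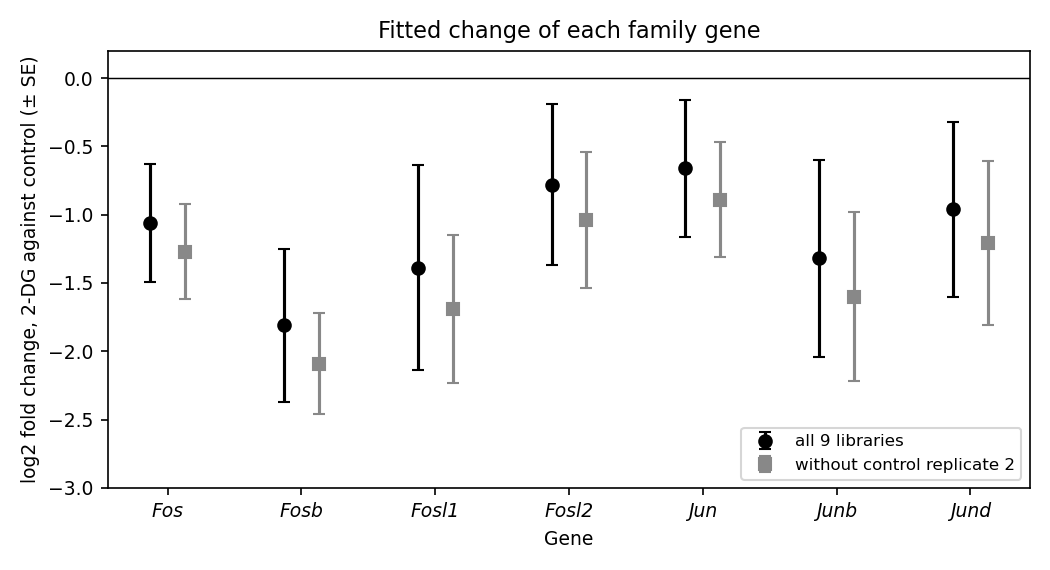
Fitted log2 fold change of each family gene, 2-DG against control, with its SE, from all 9 libraries (circles) and without control replicate 2 (squares). All estimates lie below 0, from -0.66 for Jun to -1.81 for Fosb with all 9 libraries, and each is lower without control replicate 2, as leaving out the lowest control must give.

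The control libraries differed widely among themselves. Control replicate 5 had the highest level of 6 of the 7 genes among all 9 libraries, and control replicate 2 stood at 6.63% (Fosl1) to 32.5% (Fos) of the mean of the other controls. Among the JUN genes and Fosl2, control replicate 5 exceeded control replicate 1 by 2.8-fold for Jun, 3.45-fold for Junb, 3.11-fold for Jund and 3.38-fold for Fosl2. The corresponding ratio was 1.6 for Fos, 1.93 for Fosl1 and 2.29 for Fosb. In the 2-DG group, replicates 2 and 3 lay below every control library other than replicate 2 for 7 of 7 genes, replicate 1 for 5 genes and replicate 4 for 2 genes.

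**Figure D3:**
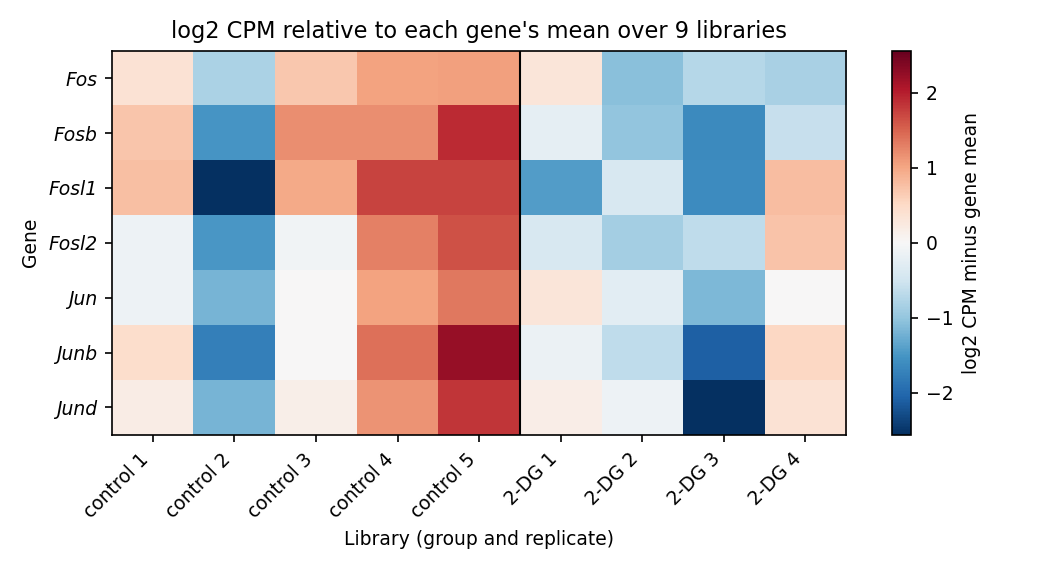
log2 CPM of each family gene (rows) in each library (columns), relative to the gene's mean over the 9 libraries, red above and blue below it. Control replicate 2 is blue and control replicate 5 red in all 7 rows, and 2-DG replicate 4 is red in Fosl1, Fosl2 and Junb, where the other 2-DG libraries are blue.

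Per kilobase of annotated exons, Fos had the highest and Fosl2 the lowest level of the family in 9 of 9 libraries. The mean levels in control explants were 455.8 ± 185.9 CPM per kb for Fos, 205.4 ± 129.4 for Jun, 167.1 ± 104.2 for Fosl1, 122.3 ± 105.7 for Junb, 80.4 ± 47.9 for Fosb, 79.1 ± 57.2 for Jund and 16.6 ± 12.5 for Fosl2 (SD, n = 5). In 2-DG explants they were 218.2 ± 106.4 for Fos, 130.1 ± 48.9 for Jun, 63.8 ± 52.4 for Fosl1, 49.1 ± 30.9 for Junb, 40.8 ± 23.1 for Jund, 22.9 ± 8.86 for Fosb and 9.67 ± 5.52 for Fosl2 (SD, n = 4). Neighbours in the order from Jun to Jund lay within each other's spread in control explants, and Fosb stood level with Jund in control explants. The place of Fosb depends on the length used: per kilobase of the main transcript, without the retained intron, its mean was 132.6 CPM per kb in control and 37.7 in 2-DG explants, against 79.1 and 40.8 for Jund. Fos made up 26.2% to 57.6% of the family's summed level per kb, with no separation of the groups. Jun made up 14.8% to 21% in control and 21% to 28.3% in 2-DG libraries, with 2-DG replicate 3 inside the control range and the other 3 above it.

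The levels moved together across libraries. Pearson's r of log2 CPM over the 9 libraries was 0.67 to 0.96 for the 21 pairs of family genes, and 0.93 to 0.96 for the 3 pairs among Jun, Junb and Jund. The 12 pairs of a FOS and a JUN gene had r of 0.69 to 0.91. Within the groups and without control replicate 2, the JUN pairs kept r of at least 0.91, whereas Fos and Fosl1 had r of -0.22. These values describe 8 or 9 libraries that differ in depth and in marker sums, and the family genes of a library share both.

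Outside the family, the genes most like each member were found among 12937 genes with a mean of at least 5 CPM. For Fos they were Egr1 and Egr3, immediate early zinc finger factors, and Npy, a neuropeptide, each with r of 0.95. For Fosb they were Egr2 (r = 0.99), Cfap126 and Irs2, an adaptor of the insulin receptor (r = 0.97 for both). The log2 fold changes of the genes named here as most like a member ran from -2.11 for Egr3 to -0.13 for Plpbp. They are no further support for the direction of the family, since a gene picked for following a member over all 9 libraries tends to share its group difference. Fosl1 was most like the serine protease gene Prss23, the adhesion molecule gene Vcam1 (r = 0.99) and the interferon-induced GTPase gene Iigp1 (r = 0.98). Fosl2 was most like Ackr3, Ifi44 and Gch1 (r = 0.98 for each), and Jun most like Lif, a cytokine released by injured retina (r = 0.96), Stk40 and Plpbp (r = 0.95). Junb and Jund shared the immediate early gene Ier2 as their nearest gene, with r of 0.97 and 0.98. Junb was next most like Plpbp and Stk40, as Jun was, and Jund most like Zbtb21 and Naif1.

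Of the 21 annotated transcripts of the family, 17 passed the filter on low counts and 4 (Fos-202, Fosb-203, Fosl1-203 and Junb-202) did not. A transcript that is high in 1 group alone can pass this filter, so the counts describe those tested and no more. Of the 17, all were lower in 2-DG, against 48.9% of all 62900 transcripts (46.6% without control replicate 2). At an unadjusted p-value under 0.05, 7 were lower (2.28% of all transcripts), 1 had groups without overlap (0.968%) and 0 passed the adjusted threshold in edgeR's test (0% of all transcripts). Without control replicate 2 the counts were 11 lower (3.24%), 8 without overlap (3.07%) and 0 past the adjusted threshold (0%). The 17, the 7, the 11 and the 8 all include Fosb-202 and Fosl2-203, which passed the filter only through control libraries. For these transcripts a lower call follows in part from the filter, so the counts are a description and no further support. The main coding transcripts, Fos-201, Fosb-201, Fosl1-201, Fosl2-201, Jun-201, Junb-201 and Jund-201, took at least 73.8% of their gene's transcript counts in every library.

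For Fosb, the full-length Fosb-201 (338 codons) took 73.8% to 86.2% in control and 77.1% to 82.5% in 2-DG libraries. The retained-intron transcript Fosb-204, an unspliced form of the gene's 5′ part, took 20.1%, 10.3%, 22.9%, 15.6% and 16.6% in control replicates 1 to 5 and 15%, 20.3%, 20.9% and 18% in the 2-DG replicates. Its share was lowest in control replicate 2, and the groups overlapped. Fosb-206, with 237 codons the length of ΔFOSB, took 0% to 3.01% in control and 0.451% to 1.92% in 2-DG libraries. Fosb-202 had 72, 0, 5, 240 and 45 counts in control replicates 1 to 5 and 0 counts in all 4 2-DG libraries.

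Of the retained-intron and noncoding forms of the other FOS genes, Fos-203 (0.818% to 1.87% in control, 0.687% to 1.71% in 2-DG libraries) and Fosl2-202 (0.831% to 1.7% and 0.387% to 2.01%) overlapped in share. Fosl2-203, a retained-intron transcript, took 7.21%, 0%, 4.8%, 9.09% and 9.45% of Fosl2 counts in control replicates 1 to 5 and 1.26%, 0.261%, 0.93% and 0% in the 2-DG replicates. It was above every 2-DG library in 4 of the 5 controls, with 63 to 838 counts in those and 0 to 39 counts in the 2-DG libraries. It passed the filter on low counts only through the control libraries, so no fold change or test is given for it, and the log2 fold change of the coding Fosl2-201 was -0.39 (SE 0.58). Fos-204, a noncoding transcript, took 0.801% to 0.947% of Fos counts in control and 0.207% to 0.634% in 2-DG libraries, without overlap. Its log2 fold change was -2.48 (SE 0.54, edgeR adjusted p = 1, unadjusted p = 0.00104). Fosl1-202, with a retained intron, took 3.26% to 6.17% of Fosl1 counts in control libraries. In 2-DG replicates 1 to 3 its share was 9.51%, 9.45% and 9.64%, above every control, and in replicate 4 it was 2.54%, below every control. The shares were not tested, and the deposited counts carry no estimate of how uncertain the split of reads among transcripts is. The libraries were made from total RNA, and whether counts of retained-intron transcripts came from RNA not yet spliced was not tested.

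**Figure D4:**
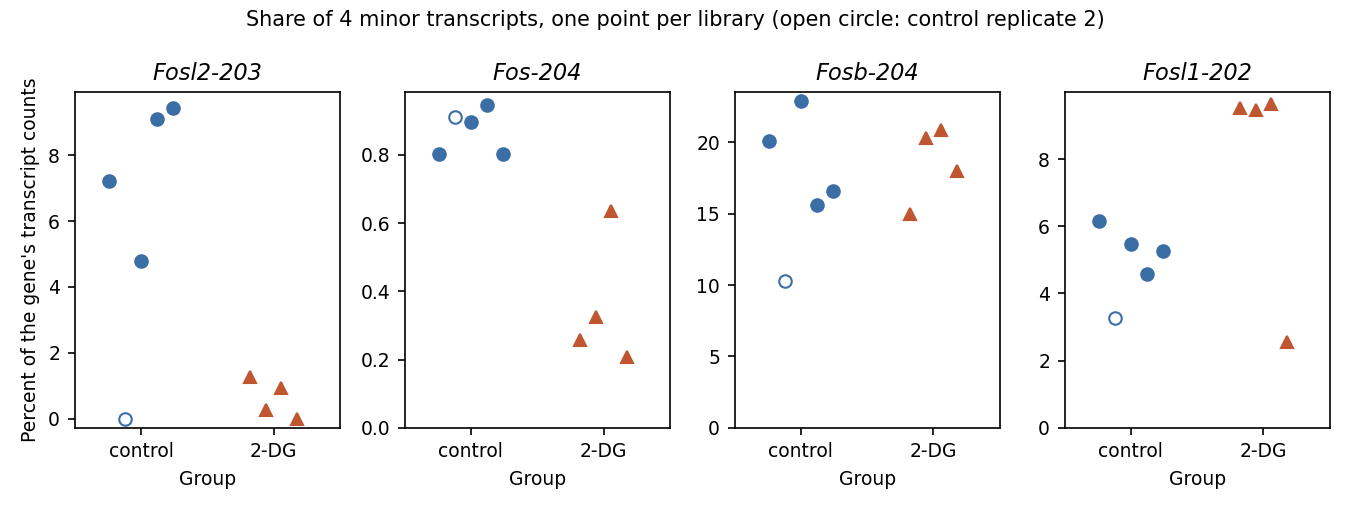
Percent of a gene's transcript counts taken by Fosl2-203, Fos-204, Fosb-204 and Fosl1-202 in each library, with circles for control (open for replicate 2) and triangles for 2-DG. Fos-204 is at 0.801% or more in control and at 0.634% or less in 2-DG libraries, and Fosl2-203 is at 1.26% or less in all 2-DG libraries and in control replicate 2.

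The other genes of the pathway were described from 4 lists. Of 12 other leucine zipper partners of AP-1, 6 were lower and 6 higher, with a median log2 fold change of -0.09 that was -1.03 without 2-DG replicate 4 and -1.01 with voom. At the level of single genes, 1 was lower at an unadjusted p-value under 0.05 (3 without control replicate 2), against 4.83% of all genes (6.07% without that library). Atf3, a stress-induced partner of JUN, had 259.9 ± 187.7 CPM in controls and 116.3 ± 59.2 CPM in 2-DG explants (log2 fold change -1.16, SE 0.56, edgeR adjusted p = 0.709). Batf2 and Batf3, which compete with FOS for JUN, had log2 fold changes of -1.49 and -0.94 at mean control levels of 3.04 and 0.702 CPM.

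Of 28 known AP-1 target genes, 27 were tested, 18 were lower and 9 higher, with a median log2 fold change of -0.27, which was -1.02 without 2-DG replicate 4 and -0.91 with voom. At an unadjusted p-value under 0.05, 4 were lower and 0 higher, against 4.83% of all genes lower. Among these were Nptx2, Thbs1 and Ccnd1. Nptx2, a synaptic pentraxin, had 42.4 CPM in control replicate 2, 194.4 to 280.5 CPM in the other controls and 39.3 to 68.7 CPM in 2-DG libraries. Its log2 fold change was -1.8 (SE 0.45, edgeR adjusted p = 0.524) and, without control replicate 2, -2.06 (SE 0.23, edgeR adjusted p = 0.034), which passed the threshold. When 1 further library other than 2-DG replicate 4 was left out as well, 0 genes passed it. Thbs1, encoding thrombospondin 1, had 12.9 CPM in control replicate 2, 169.4 to 364.8 CPM in the other controls and 18.4 to 64.6 CPM in 2-DG libraries (log2 fold change -2.55, SE 0.79, edgeR adjusted p = 0.538). Ccnd1, encoding cyclin D1, had a log2 fold change of -1.33 (SE 0.42, edgeR adjusted p = 0.546). Without control replicate 2, 8 of the 27 targets were lower at an unadjusted p-value under 0.05, against 6.07% of all genes. In that comparison 5 targets had lower groups without overlap, against 4.53% of all genes. With all 9 libraries 0 targets did, against 1.41% of all genes. Control replicate 2 was the lowest control for Nptx2, Thbs1 and Ccnd1. Leaving it out widens their difference by construction, so the values without it are a description and no further support.

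Of 20 kinases and ubiquitin ligases of the pathways that lead to FOS and JUN proteins, 15 had a log2 fold change above 0 and 5 below it (50.8% of all genes were below it), with log2 fold changes between -0.17 and 0.89 and a median of 0.21. Higher at an unadjusted p-value under 0.05 was 1, against 2.42% of all genes, namely Mapk7, encoding ERK5, with 21.1 ± 4.13 CPM in controls and 39.3 ± 18.1 CPM in 2-DG explants (log2 fold change 0.89, SE 0.3, edgeR adjusted p = 0.588). Map2k7, which activates JNK, Rps6ka3, which encodes the kinase RSK2, and Itch, which encodes a ligase for JUN, had log2 fold changes of 0.42, 0.48 and 0.3. Of 16 factors that bind the Fos and Jun promoters, 14 had a log2 fold change above 0 and 2 below it, with a median of 0.27. At an unadjusted p-value under 0.05, 1 was higher and 1 lower, against 2.42% and 4.83% of all genes. Mrtfb, an SRF coactivator, had 45.1 ± 15.3 CPM in controls and 97.3 ± 33.3 CPM in 2-DG explants (log2 fold change 1.11, SE 0.33, edgeR adjusted p = 0.526). Srf itself had 58 ± 26.1 CPM in controls and 32.9 ± 9.24 CPM in 2-DG explants (log2 fold change -0.82, SE 0.35, edgeR adjusted p = 0.68). Mrtfa and Elk1, a ternary complex factor, had log2 fold changes of 0.31 and 0.43. Since RNA was measured, kinase activity and the phosphorylation of these factors are outside these values.

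**Figure D5:**
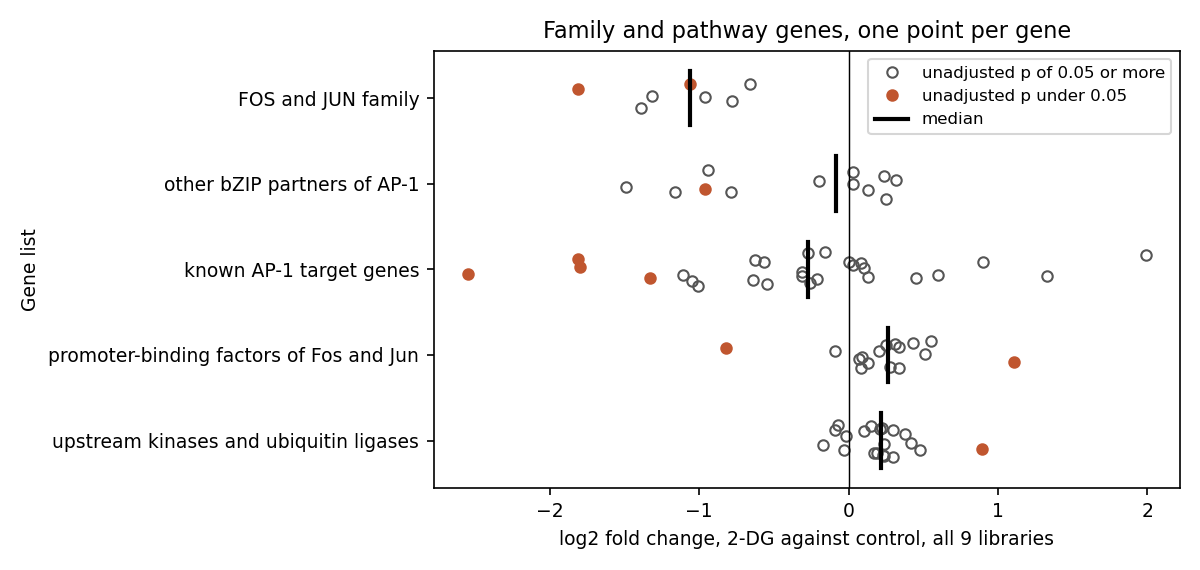
log2 fold change, 2-DG against control with all 9 libraries, of each tested gene of the family and of 4 pathway lists, with filled points at an unadjusted p-value under 0.05 and bars for list medians. The family median is -1.06 with all points below 0, and the medians of the other lists lie between -0.27 and 0.27. Without 2-DG replicate 4 the medians were -1.26 for the family, -1.03 for the partners and -1.02 for the targets.

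Cell type markers were summed per library, since the family is expressed in many retinal cells. Müller glia markers (8 of 8 with counts in every library) summed to 1839 to 6827.1 CPM in control and 843 to 3465.3 CPM in 2-DG libraries, a difference of -1.03 on the log2 scale (exact two-sided permutation p = 0.151, adjusted over 12 lists 0.883). The first marker of the list, Rlbp1, had 498.9 ± 372.2 CPM in controls and 251.4 ± 182 CPM in 2-DG libraries, and 3 of the 8 markers, Sox9 (127.3 ± 72.1 against 27.7 ± 10.5 CPM), Glul and Slc1a3, were lower at an unadjusted p-value under 0.05, against 4.83% of all genes. Dkk3 had a log2 fold change of -0.3, and Apoe, Kcnj10 and Aqp4 had 0.23, 0.27 and 0.19. Control replicates 4 and 5, which were the highest 2 libraries for 6 of the 7 family genes, also had the highest Müller glia sums, 4224 and 6827.1 CPM. Control replicate 2, the lowest control for the family, had 3698.2 CPM, and 2-DG replicate 3, the lowest library for Fosb, Junb and Jund, had 3465.3 CPM, above control replicates 1 and 3. Over the 12 lists the exact p-values ran from 0.151 to 0.952. Endothelial and pericyte markers (8 of 8) were highest in 2-DG replicate 4 (2529.8 CPM) and control replicate 5 (2021.8 CPM). Microglia and macrophage markers (7 of 8 with counts in every library) summed to 10.6 to 47.3 CPM in control and 9.21 to 55.1 CPM in 2-DG libraries. The pigment epithelium list without Rlbp1, which Müller glia express too (5 of 6 with counts in every library), was 3.51 to 5.73 CPM in control and 1.44 to 164 CPM in 2-DG libraries, with the 164 CPM in replicate 3. Cone markers (6 of 6) were also highest in this library, at 753.7 CPM against 69.9 to 94.9 CPM in the other 2-DG libraries, and control replicate 2 had 538.1 CPM against 54.2 to 78.5 CPM in the other controls. Both libraries that stood apart in cone markers were the lowest 2 of the 9 for 5 of the 7 family genes (Fosb, Fosl1, Jun, Junb and Jund). The part of cell composition in the levels of the family was not tested.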

How the data were processed

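Total RNA from retinal explants was sequenced in 9 libraries (5 control, 4 2-DG) prepared with a strand-specific low-input kit (4 ng input, 13 PCR cycles) and read from both ends over 101 bases. The labels give 1 batch. The authors deposited estimated counts per gene and per transcript, without scaling between libraries, and CPM on a scaled library size for 12568 genes, whose sums per library are too high for plain CPM and which were therefore treated as a score. Per the submitters' processing notes kallisto and GRCm38 were used, and how transcripts were combined into genes is not given in the sources used here. The deposited comparison of 2-DG with control holds fold changes and p-values and was not used.

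Estimated counts were rounded, which changed totals by at most 0.00377%. Genes were filtered with filterByExpr, scaled with TMM and tested with edgeR 4.0.16 in R 4.3.3 (glmQLFit with legacy=TRUE, glmQLFTest, group as the only term). Benjamini-Hochberg adjustment covered all genes kept (21049, or 20632 without control replicate 2), and transcripts were tested likewise. Unadjusted p-values in the text are from the same fits. The SE was obtained as |log2 fold change|/√F. CPM used the TMM-scaled library sizes of the fit, marker genes included, and correlations were computed on log2 CPM with a prior count of 2. Summed markers were compared as log2(sum + 1) by exact two-sided permutation, for which the smallest possible p-value is 0.00794. Annotation was from GENCODE M21 and promoters from RefSeq (GRCm38.p6), whose table matched 6 of the 7 genes by symbol. The fits were tested on simulated counts.

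Named were all 7 family genes, the 4 genes with the smallest p-value of each pathway list, the 3 most correlated genes of each family gene and the first gene of a marker list. Some genes that this rule names are not reported here. Further Müller glia markers, the overlapping genes and the minor transcripts were named after their values were seen. The family, the lists and the comparison without control replicate 2 were chosen with earlier results of these data known. Alternatives were other scalings (RLE, library size, upper quartile), no filter, robust dispersion, DESeq2 1.42.0, voom with quality weights in limma 3.58.1, limma on log2(deposited CPM + 1), a replicate block and each library left out. The fits without control replicate 2 and 1 further library, and the pigment epithelium list without Rlbp1, were added after the data had been seen.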

Additional observations from a re-analysis of the deposited data

Results flagged for a closer look

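The level of Fos in 2-DG replicate 1 stood apart from its group. It was 884.1 CPM, against 337.1, 430 and 401.7 CPM in the other 2-DG libraries, and the gap to the nearest of them was 0.83 of the group's range, just above Dixon's 95% critical value for 4 samples. It was 1 of 14 groups examined (7 genes in 2 groups), and chance alone marks about 1 in 20. Fosb (207.6 CPM) and Jun (581.7 CPM) were also highest in this library among 2-DG libraries, and the other 4 genes were not.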

How the results depend on the processing

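The log2 fold change of all 7 family genes stayed below 0 in all 182 alternative estimates, under every scaling, filter, test and left-out library. With voom and quality weights (0.26 for 2-DG replicate 4 to 4.18 for 2-DG replicate 1), 2 family genes passed the adjusted threshold, Fosb (-1.67, limma adjusted p = 0.0279) and Fosl1 (-2.12, limma adjusted p = 0.0349), and 5 had an unadjusted p-value under 0.05, while 1222 genes passed in all and 5474 unadjusted. DESeq2 called 284 genes and 0 family genes, and without a filter 2642 genes had an unadjusted p-value under 0.05. Leaving out 1 or, together with control replicate 2, 2 libraries gave 0 to 177 genes past the adjusted threshold and 921 to 3340 unadjusted. For the family it gave 0 to 1 past the adjusted threshold, 1 to 6 unadjusted and 0 to 5 without overlap. The 5 came without control replicate 2, the lowest control for all 7 genes, and without 2-DG replicate 4. The share of all genes without overlap was not computed for that fit, so the 5 is a description and no further support. For its transcripts, refitted without control replicate 2 alone, the count was 11 unadjusted. The 1 adjusted call was Fosl1 without control replicate 2 and 2-DG replicate 4 (-2.42, edgeR adjusted p = 0.0442), its lowest control and highest 2-DG library, and its value in the other such fits ran from -2.11 to -1.13. Without control replicate 2 the counts were 16 genes past the adjusted threshold and 4 family genes unadjusted, and without control replicate 3, 4 or 5 or 2-DG replicate 2 or 3, 1 family gene unadjusted.

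Whether same-numbered libraries were paired could not be decided from 4 pairs. Deviations of same-numbered libraries correlated at 0.64, -0.1, 0.17 and 0.25, and 1 of 4 2-DG libraries correlated best with its own number. With a replicate block, 2 family genes had an unadjusted p-value under 0.05 and 0 passed the adjusted threshold in edgeR's test, where all genes gave 0 adjusted and 1351 unadjusted calls, and the log2 fold changes were -0.89 for Fos, -1.27 for Fosb, -1.07 for Fosl1, -0.2 for Fosl2, -0.21 for Jun, -0.64 for Junb and -0.58 for Jund. Control replicate 5, which has no partner, does not contribute to them.

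Without 2-DG replicate 4, alone or with control replicate 2, the median was -1.03 and -1.22 for the AP-1 partners and -1.02 and -1.28 for the targets.

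Marker sums changed direction with single libraries, on the log2 scale from -0.55 to 0.23 for rods, -0.3 to 1.13 for cones, -0.35 to 0.38 for amacrine and horizontal cells, -0.49 to 0.04 for astrocytes, -0.7 to 0.12 for microglia, -0.14 to 0.7 for endothelium and pericytes and -0.1 to 0.47 for corneal epithelium and iris muscle. The causes were not tested.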

Other observations

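Genes with TGANTCA in the 250 bases before their RefSeq start were compared with the rest as a description. Any base was allowed at N, so the set is wider than AP-1 sites. Of 829 such genes tested, 7.12% were lower and 4.1% higher in 2-DG at an unadjusted p-value under 0.05 in edgeR's test, against 4.02% and 2.67% of 12816 genes without the sequence. Without control replicate 2 the shares were 10% lower and 3.92% higher, against 5.35% and 3.34%. The median log2 fold changes were -0.032 with and 0.032 without the sequence, and -0.002 and 0.059 without control replicate 2. Of 379 genes with the full CRE TGACGTCA, 4.22% were lower and 1.06% higher, and without control replicate 2 6.6% and 2.11%. All genes tested, with or without a promoter entry, had 4.83% lower and 2.42% higher, and 6.07% lower without control replicate 2. Expression level and promoter base composition were not matched between these sets, and their part in the shares was not tested.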
